A study of Mus musculus with 9 samples.

Results

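The CHD genes, Chd1 to Chd9, encode the chromodomain helicase DNA-binding proteins, and the CHD7 peaks in their regulatory domains were examined here. The 9 genes were taken as named, out of 21911 protein-coding genes of the mouse, and their peaks were those whose midpoint fell in the regulatory domain of 1 of them. By this rule 6 of 3761 CHD7 peaks belonged to CHD genes. The cells were wild-type cardiac precursor (CP) cells, derived from mouse embryonic stem cells and taken at day 5 of differentiation into cardiomyocytes. CUT&RUN, in which an antibody directs a nuclease to the chromatin that holds the protein of interest, was carried out with anti-CHD7 in 3 libraries, with an IgG control in 3 and with input in 3. The deposited list holds the peaks that overlapped in at least 2 of the 3 anti-CHD7 replicates, as chromosome, start and end in mm10. It gives no height, read count or P-value and no value for single replicates, so depth is unknown and the spread between replicates could not be measured for any value, and the peaks alone do not allow the cell type to be checked against marker genes.

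CHD proteins are ATP-dependent chromatin remodelers. They share paired chromodomains and a helicase-like ATPase, with which they slide, space or evict nucleosomes. Chd1 and Chd2 make up subfamily I, Chd3, Chd4 and Chd5, which are ATPase subunits of the nucleosome remodeling and deacetylase (NuRD) complex, make up subfamily II, and Chd6, Chd7, Chd8 and Chd9 make up subfamily III. CHD7 binds many distal enhancers, and its loss of function in humans causes CHARGE syndrome, of which heart defects are a part.

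Of the 9 CHD genes, 4 (44.4%) had at least 1 CHD7 peak in their regulatory domain, against 22.7% of all protein-coding genes. They were Chd6 with 3 peaks and Chd1, Chd7 and Chd9 with 1 peak each, while Chd2, Chd3, Chd4, Chd5 and Chd8 had none. A regulatory domain ran from 5 kb upstream to 1 kb downstream of the transcription start site (TSS) of each gene, its basal domain, and then reached out on either side until it met the basal domain of another protein-coding gene, by 1 Mb at most. A peak between a pair of genes is therefore counted for both, and how many peaks a gene receives depends in part on the length of its domain. The 3 peaks of Chd6 set it beside the 1.75% of all genes with 3 or more. That share is over domains of all lengths, and the Chd6 domain was longer than that of 97.4% of all genes. No CHD gene had a peak in its basal domain, where 3.17% of all genes had one. Chd6 and Chd9 had a peak between the start and the end of the gene, as had 8.09% of all genes. These 2 genes are 162098 and 226165 bp long, and the share is over genes of all lengths.

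The 6 peaks are shown by the 200 bp around their midpoints, because these letters are what the motif counts below rest on, and for Chd9 by 300 bp, because a coding exon lies there. All are the plus strand of mm10, written 5′ to 3′. Peaks carry their number in the order of the deposited list. Capitals mark matches to the motifs described below, except in the Chd9 peak, where they mark exon 21 of Chd9. The windows are chr2:160972251-160972450, chr2:161187666-161187865 and chr2:161283375-161283574 for Chd6, chr4:8883963-8884162 for Chd7, chr8:91008574-91008873 for Chd9 and chr17:15574494-15574693 for Chd1.
Chd6, peak512, in an intron: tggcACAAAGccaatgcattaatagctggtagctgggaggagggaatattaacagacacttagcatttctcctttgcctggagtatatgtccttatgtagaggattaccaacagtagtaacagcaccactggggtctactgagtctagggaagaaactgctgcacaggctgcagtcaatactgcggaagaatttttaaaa
Chd6, peak513, upstream: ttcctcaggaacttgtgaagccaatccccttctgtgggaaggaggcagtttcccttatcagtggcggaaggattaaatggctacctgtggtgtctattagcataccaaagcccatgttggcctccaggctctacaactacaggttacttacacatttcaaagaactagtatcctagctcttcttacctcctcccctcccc
Chd6, peak514, far upstream: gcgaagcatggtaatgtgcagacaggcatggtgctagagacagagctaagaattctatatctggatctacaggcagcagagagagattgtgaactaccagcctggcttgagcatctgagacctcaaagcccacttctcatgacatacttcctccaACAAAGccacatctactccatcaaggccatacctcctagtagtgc
Chd7, peak733, beyond the gene end: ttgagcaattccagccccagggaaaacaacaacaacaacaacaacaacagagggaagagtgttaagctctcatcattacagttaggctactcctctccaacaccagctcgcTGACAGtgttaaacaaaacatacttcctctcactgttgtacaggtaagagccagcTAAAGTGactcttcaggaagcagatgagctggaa
Chd9, peak1742, over exon 21: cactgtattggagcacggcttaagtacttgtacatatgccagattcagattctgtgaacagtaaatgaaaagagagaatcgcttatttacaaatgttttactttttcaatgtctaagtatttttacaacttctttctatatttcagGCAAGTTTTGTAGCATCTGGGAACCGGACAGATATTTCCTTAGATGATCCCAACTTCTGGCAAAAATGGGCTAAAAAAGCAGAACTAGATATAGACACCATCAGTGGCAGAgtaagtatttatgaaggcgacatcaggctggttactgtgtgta
Chd1, peak3378, upstream: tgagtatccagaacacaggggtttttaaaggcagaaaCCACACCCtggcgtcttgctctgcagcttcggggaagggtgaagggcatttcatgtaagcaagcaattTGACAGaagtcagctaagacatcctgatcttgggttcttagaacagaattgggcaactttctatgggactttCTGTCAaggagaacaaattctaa

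Chd6 encodes the remodeler of subfamily III that lies at chr2:160946978-161109075 on the minus strand. Its regulatory domain, chr2:160917329-162109022, was 1192 kb long, longer than that of 97.4% of all genes, and ended upstream at the 1 Mb limit rather than at another gene. The first of its 3 peaks, peak512 at chr2:160971601-160973101, lay 136.7 kb downstream of the TSS in intron 27 of 36. At 1501 bp it was the widest of the 6 peaks, and 90.5% of all CHD7 peaks were narrower. Its midpoint was 7.55 kb from the TSS of a non-coding processed transcript of Chd6, and it was the only 1 of the 6 within 10 kb of a TSS when every transcript of protein-coding genes was counted, as 43.3% of all peaks were. The same peak also fell in the domain of Emilin3, which encodes an extracellular matrix glycoprotein, 60.02 kb upstream of its TSS.

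The other peaks of Chd6 lay upstream of the gene and were assigned to Chd6 alone, as 18.5% of all peaks were to 1 gene. Peak513, at chr2:161187384-161188148, was 765 bp wide and 78.74 kb upstream of the TSS, in intron 2 of 2 of Gm14243, a long intergenic non-coding RNA gene. Peak514, at chr2:161283023-161283926, was 904 bp wide and 174.5 kb upstream of the TSS, in intergenic sequence 3.75 kb from the processed pseudogene Gm11448. Their midpoints were 95.71 kb apart. Both held more annotated repeats than most peaks, with 43.3% of bases in peak513 and 32.0% in peak514 against a median of 13.2% over all peaks. In the 200 bp shown, 80.0% of the bases of peak514 and 19.0% of those of peak513 were repeats. With 3 peaks over its domain, Chd6 had 2.52 peaks per Mb. With 5 peaks within 500 kb of its TSS it stood above the median of 2 over all genes. Chd3 had 4 peaks within 500 kb, Chd1, Chd4 and Chd8 had 3 each, Chd2 had 2, and Chd5, Chd7 and Chd9 had 1 each. Within 1 Mb Chd6 had 5, against a median of 4 over all genes.

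Chd7 itself, the gene of the protein that the antibody recognizes, lies at chr4:8690406-8867659 on the plus strand and had 1 peak in its domain of 727.7 kb. This peak, peak733 at chr4:8883782-8884343, was 562 bp wide and lay 192.7 kb downstream of the TSS, 16.4 kb beyond the end of the gene, in intergenic sequence. The nearest TSS was that of a shorter protein-coding transcript of Chd7, 28.8 kb away. The peak also fell in the domain of Clvs1, which encodes a clathrin vesicle-associated lipid-binding protein, with its TSS 385.3 kb away. It was an isolated peak, with the next CHD7 peak 1028 kb away, and 95.3% of all peaks had a nearer neighbour. That next peak was assigned to Gdf6, a growth factor gene of the BMP family, and to 2610301B20Rik, and lay 648 kb outside the domain of Chd7. The Chd7 peak held 1 CpG dinucleotide, a ratio of observed to expected CpG of 0.0382, and 2.63% of all peaks had a lower ratio.

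Chd9, another remodeler of subfamily III, lies at chr8:90828352-91054516 on the plus strand. Its domain of 242.7 kb ran between the basal domains of Gm19935 and Rbl2. Its peak, peak1742 at chr8:91008324-91009023, was 700 bp wide and lay 180.3 kb downstream of the TSS. The midpoint was in intron 20 of 39, and the peak spanned the whole of exon 21 of 40, a coding exon of 111 bp at chr8:91008720-91008830 that began 46 bp from the midpoint. It was the only 1 of the 6 peaks to overlap an exon of the gene it lay in. Rbl2, which encodes the pocket protein p130, a repressor of cell-cycle genes, shared the peak with its TSS 61.38 kb away. With 34.3% GC this was the most AT-rich of the 6 peaks, and 0.771% of all CHD7 peaks had a lower GC content. The next CHD7 peak was 1258 kb away, in the domains of Irx3 and Irx5, which encode homeobox transcription factors, and 96.7% of all peaks had a nearer neighbour.

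Chd1, whose protein binds histone H3 methylated at lysine 4, lies at chr17:15704967-15772610 on the plus strand. Its domain of 257.3 kb ran between the basal domains of Prdm9 and Rgmb. Its peak, peak3378 at chr17:15574401-15574786, lay 130.4 kb upstream of the TSS in intergenic sequence, near the edge of the domain. It was 386 bp wide, and only 0.718% of all peaks were narrower. Prdm9, which encodes the histone methyltransferase that places meiotic recombination hotspots, was closer, with its TSS 11.27 kb away. This was the 1 peak of the 6 whose nearest TSS over all transcripts belonged to another gene than a CHD gene. The processed pseudogene Gm7450 lay 1.41 kb from it.

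**Figure D1:**
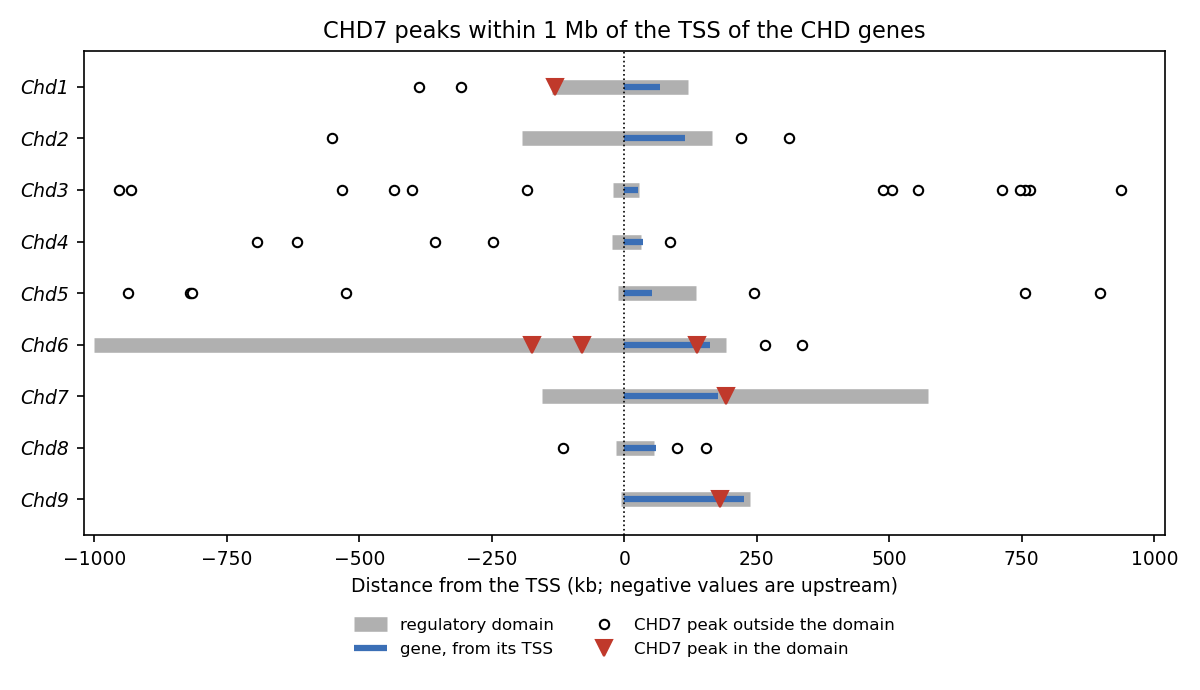
CHD7 peaks (triangles in the regulatory domain, circles outside it) within 1 Mb of the TSS of each CHD gene, with distance from the TSS in kb, the regulatory domain as a grey bar and the gene as a blue bar, all drawn in the direction of transcription. Chd6 has 3 peaks in the longest domain, none of the 6 triangles lies at a TSS, and Chd7 and Chd9 have no circle.

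The 5 CHD genes without a peak were the NuRD ATPase genes Chd3, Chd4 and Chd5, with Chd2 from subfamily I and Chd8 from subfamily III. Chd4, a core NuRD ATPase in many cell types, had a domain of 54.63 kb between the basal domains of Lpar5 and Nop2. The nearest CHD7 peak was 86.42 kb downstream of its TSS, 55.5 kb outside the domain, in the domains of Gapdh, a glycolytic enzyme gene, and Ncapd2, a condensin subunit gene. Chd3 had a domain of 49.19 kb between the basal domains of Rnf227 and Naa38. Its nearest peak was 183.3 kb upstream and assigned to Dnah2, an axonemal dynein gene. Chd5, known chiefly from neurons and testis, had a domain of 146.3 kb between the basal domains of Rpl22 and Nphp4. The nearest peak to it was 245.1 kb downstream, in the domains of Nphp4 and Ajap1.

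Chd8 is mutated in autism and encodes a protein that binds beta-catenin. The domain of Chd8 was 71.73 kb long, between the basal domains of Supt16, a FACT histone chaperone gene, and Tox4. Its nearest CHD7 peak was 98.73 kb downstream of the TSS, 43.4 kb outside the domain, and was assigned to Rpgrip1 and Supt16. Chd2, mutated in a childhood epilepsy, had the longest domain without a peak, 358.8 kb between the basal domains of Rgma and Fam174b. The nearest peak was 220.1 kb downstream of its TSS and 54.9 kb outside the domain, and belonged to Rgma, a repulsive guidance molecule gene.

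Distance from the TSS gave another order of the genes than the domains. The nearest peak was 78.74 kb from the TSS of Chd6, 86.42 kb from Chd4 and 98.73 kb from Chd8, then 130.4 kb from Chd1, 180.3 kb from Chd9, 183.3 kb from Chd3, 192.7 kb from Chd7, 220.1 kb from Chd2 and 245.1 kb from Chd5. The median over all genes was 166.0 kb, so 4 of the 9 lay nearer than the median and 5 farther. By this measure Chd4 and Chd8, without a peak in their domains, had a nearer peak than Chd1, Chd7 and Chd9, which had one, and no peak lay within 100 kb of the TSS for 6 of the 9 CHD genes and for 63.2% of all genes. These distances are from 1 TSS per gene, and the order turns in part when the TSSs of all transcripts are used. The nearest peak was then 17.11 kb from a TSS of Chd9 and 28.83 kb from one of Chd7, nearer than the 43.55 kb of Chd8 and the 62.64 kb of Chd4. Chd1, Chd2, Chd3 and Chd5 were then the 4 without a peak within 100 kb. The matching share of all genes is not given here, as the 63.2% is for 1 TSS per gene. Counting more TSSs can only bring a peak nearer, for any gene, so the 4 cannot be set against that share. Within 1 Mb there were 14 peaks around Chd3 and 1 each around Chd7 and Chd9, with 93 TSSs of other protein-coding genes around Chd3, 4 around Chd7 and 7 around Chd9.

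Domain length went with the presence of a peak among the CHD genes as it did among all genes. With all genes cut into 4 classes of equal number by domain length, 7.96% had a peak in the first class, 14.4% in the second, 25.4% in the third and 43.1% in the fourth. No CHD gene was in the first, up to 40.6 kb. Chd3, Chd4 and Chd8 were in the second, up to 90.2 kb, with a peak in 0 of 3, and Chd5 was in the third, up to 219 kb, also without one. The other 5, Chd1, Chd2, Chd6, Chd7 and Chd9, were in the fourth, and 4 of the 5 had a peak. The share of CHD genes with a peak was thus made up of genes with long domains, and the part of domain length in it was not tested. The rise did not go on to the longest domains, with a peak for 47.6% of genes with domains of 375 to 551 kb, 47.1% at 551 to 986 kb and 41.1% at 986 to 2000 kb, the class of Chd6. By subfamily, 1 of 2 genes of subfamily I, 0 of 3 of subfamily II and 3 of 4 of subfamily III had a peak, over summed domains of 616 kb, 250.1 kb and 2234 kb. Subfamily III held 5 of the 6 peaks, at 2.24 peaks per Mb of domain, with 1.62 in subfamily I and 0 in subfamily II. The density was 1.94 over the domains of all 9 and 1.38 over the chromosomes, a measure not limited to domains. Among single genes the density was 4.12 peaks per Mb for Chd9 and 3.89 for Chd1, whose domains were the shortest with a peak, then 2.52 for Chd6 and 1.37 for Chd7. With so few genes no test was made.

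**Figure D2:**
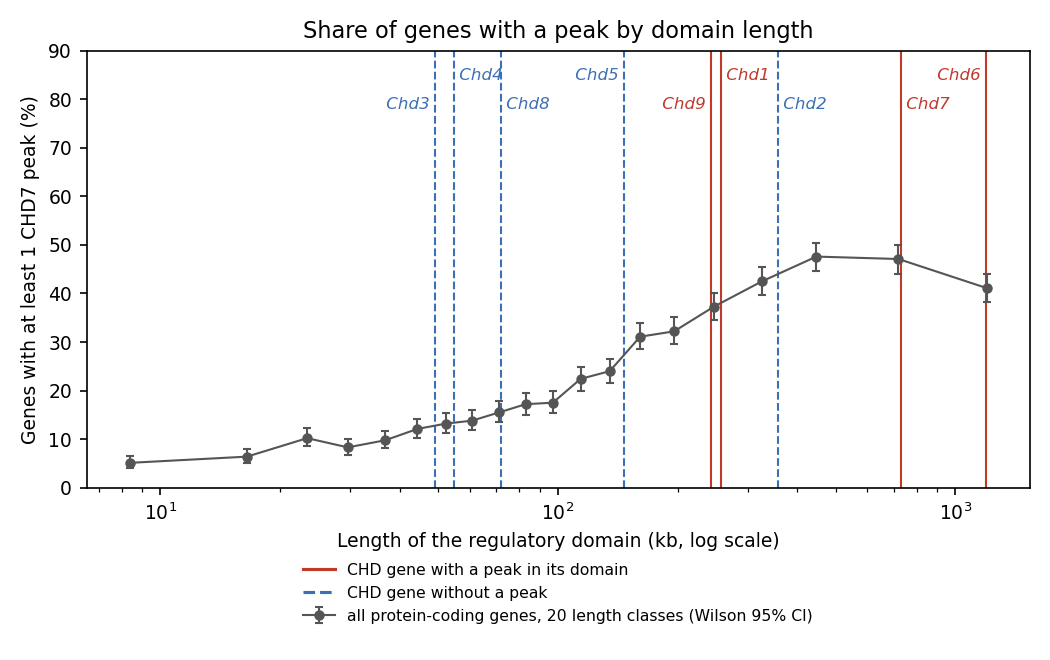
Percentage of protein-coding genes with at least 1 CHD7 peak (y axis) by length of the regulatory domain (x axis, kb, log scale), in 20 classes of about equal number with Wilson 95% confidence intervals, which cover counting error only. Vertical lines are the CHD genes, and 4 of the 5 longest domains, the solid lines, hold a peak.

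In GC content the 6 peaks lay below the median of all peaks. Peak512 and peak513 were only a little below it, with 39.9% and 42.5% of all peaks lower. Their GC content was 46.2% in peak512, 46.5% in peak513 and 42.0% in peak514 of Chd6, 43.2% in the Chd7 peak, 34.3% in the Chd9 peak and 43.3% in the Chd1 peak, so 6 of 6 were below the median of 47.5% over all 3761 peaks. The ratio of observed to expected CpG was below the median of 0.212 in 5 of 6, between 0.0382 and 0.139, and was 0.243 in the Chd9 peak. All 6 were more than 5 kb from any TSS of a protein-coding gene. The medians also cover the 32.0% of all peaks within that distance. In the 200 bp around the midpoint the GC content of the 6 ran from 35.0% to 48.5%, and no median over all peaks is given for this window. In width 3 were above and 3 below the median of 703 bp, and the 3 above were the peaks of Chd6.

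**Figure D3:**
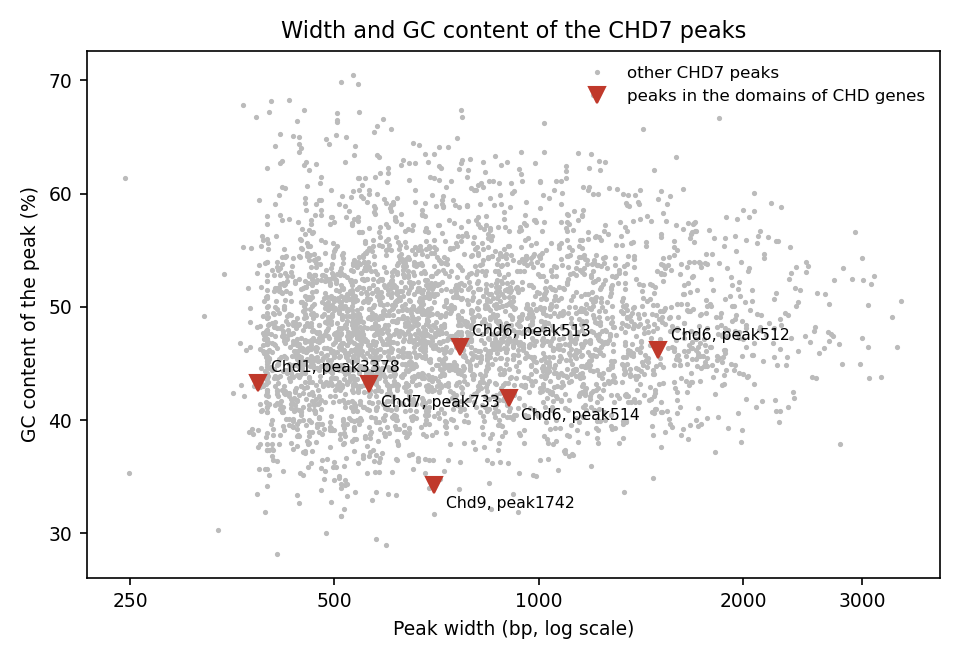
Width (x axis, bp, log scale) and GC content (y axis, %) of the 6 CHD7 peaks in the domains of CHD genes (triangles, labelled with gene and peak number) and of the other CHD7 peaks (grey points). The Chd9 peak has 34.3% GC, the Chd1 peak is 386 bp wide, and the 3 Chd6 peaks are the widest of the 6.

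Consensus motifs of 11 transcription factor families known from heart development or general promoter function were searched on both strands. In the 200 bp shown, the SOX letters ACAATG or ACAAAG were in peak512 and peak514 of Chd6, as in 25.2% of all peaks, each time as ACAAAG. The MEIS letters TGACAG were in the Chd7 peak at 1 site and in the Chd1 peak at 2 sites, against 15.3% of all peaks. The Chd7 peak also held the NKX2 letters TNAAGTG, present in 11.4% of all peaks, and the Chd1 peak the KLF letters CCACACCC, present in 2.21%. None of these sites overlapped another. Peak513 of Chd6 and the Chd9 peak held none of the 11 motifs in this window, as did 29.6% of all peaks. The remaining 7 motifs were in none of the 6 windows. These were GATA, searched as AGATAA and held by 11.8% of all peaks, the MEF2 motif, held by 1.89%, and ISL1, searched as CTAATGG or CTAATTG and held by 3.51%. The SP motif was searched as GGGCGG and was in 8.69% of all peaks, and CTCF was searched as AGGGGGC or AGGTGGC and was in 8.0%. T-box letters were AGGTGT, in 11.3% of all peaks, and TEAD letters GGAATG, in 11.8%. A match says only that the letters are there.

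Over the whole length of the peaks, GATA letters were in 3 of the 6, peak512, peak513 and the Chd9 peak, against 36.8% of all peaks. MEIS letters were in 5 of 6 (47.7% of all peaks), all but peak514. SOX letters were in 4 of 6 (65.1%), the 3 Chd6 peaks and the Chd9 peak. NKX2 letters were in 3 of 6 (38.2%), T-box letters in 2 (38.0%) and TEAD letters in 2 (39.1%). CTCF and KLF letters were in 1 peak each (26.8% and 8.67%). The widest peak, peak512, held 6 of the 11 motifs, and the Chd7 peak held 2, the NKX2 and MEIS motifs also found in its centre, with MEIS letters at 2 sites in place of 1. MEF2, ISL1 and SP letters were in none of the 6 peaks, and 9.55%, 13.4% and 23.4% of all peaks held them. Wider peaks offer more sequence to search, so these counts are read beside the share of all peaks of their own, unequal, lengths.

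The protein sequences set the peaks beside the branches of the family. Coding sequences of the same transcripts were translated, giving 1711 residues for CHD1, 1827 for CHD2, 2055 for CHD3, 1915 for CHD4, 1952 for CHD5, 2711 for CHD6, 2986 for CHD7, 2582 for CHD8 and 2869 for CHD9. The identity of aligned residues was 63.7% between CHD1 and CHD2, 73.0% to 74.3% among the NuRD ATPases and 50.8% to 56.5% within subfamily III. Between subfamilies it ran from 30.7% to 35.9% over 26 pairs. CHD7 was 56.5% identical to CHD6, 55.5% to CHD8 and 55.4% to CHD9. The genes of 2 of these 3 nearest relatives, Chd6 and Chd9, had a peak, as had 22.7% of all protein-coding genes, and Chd8 had none. The domains of Chd6 and Chd9, 1192 and 242.7 kb, were in the fourth class of domain length, where 43.1% of genes had a peak. That of Chd8, 71.73 kb, was in the second, where 14.4% had one. Whether peaks go with relatedness was not tested.

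**Figure D4:**
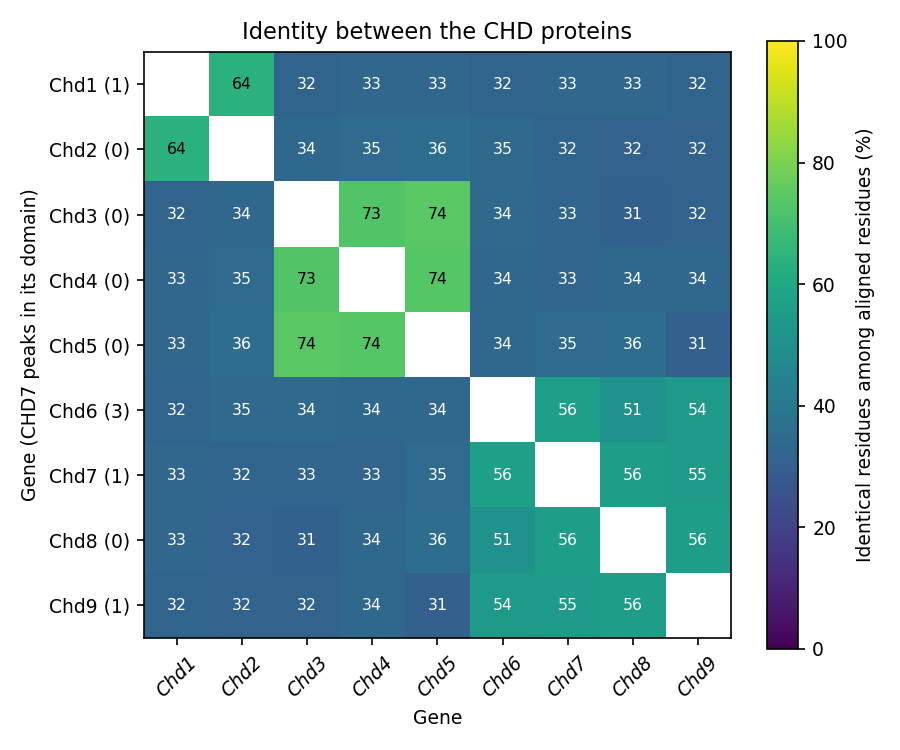
Percentage of identical residues among aligned residues for each pair of CHD proteins, from dark (low) to light (high), with the number of CHD7 peaks of each gene in brackets after its name. The 3 blocks of higher identity are the subfamilies, and the middle block, Chd3 to Chd5, has 0 peaks in each gene. The domains of these 3 genes are 49.19, 54.63 and 146.3 kb long. In their classes of domain length, 14.4% (Chd3, Chd4) and 25.4% (Chd5) of all genes have a peak.

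Genes that work with CHD proteins, and genes of other remodeling ATPases, were counted in the same way. Of 12 NuRD partners of Chd3, Chd4 and Chd5, 3 (25.0%) had a peak, which were Hdac2, a histone deacetylase, at 26.6 kb, Gatad2a at 22.6 kb and Mta3 at 60.7 kb from the TSS. Of 21 other remodeling ATPases of the SNF2 type, 7 (33.3%) had a peak, among them both SWI/SNF ATPase genes, Smarca4 at 92.1 kb and Smarca2 at 815 kb. Others were Hltf, with a peak midpoint 0.019 kb upstream of its TSS and another at 87.9 kb, Ino80 with peaks at 42.5 and 122 kb and Ep400 at 69.6 kb. Of 20 partners known for Chd7 or Chd8, 5 (25.0%) had a peak. They were Arid1a, a SWI/SNF subunit, with peaks at 46.5 and 74.3 kb, Sox2, a pluripotency and neural transcription factor, with peaks at 34.7 and 345 kb, Brd7 at 75.3 kb, Wdr5 at 122 kb and Isl1, a transcription factor of cardiac progenitors, at 200 kb. The median domain of the 3 lists was 107, 164 and 132 kb, and that of the CHD genes 243 kb, so these shares come from domains of unlike length. Over all protein-coding genes the share was 22.7%, and the shares of the NuRD partners and of the partners of Chd7 or Chd8 lay close to it.

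The count of 4 CHD genes rests on the rule that ties peaks to genes. When genes of all types, non-coding ones included, bounded the domains, Chd7 was the only CHD gene left with a peak (12.6% of all genes), and with an extension of 100 kb it was Chd6 (17.0%). By the single nearest TSS, with 1 TSS per gene, Chd6 and Chd7 had a peak (14.2% of all genes).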

How the data were processed

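CUT&RUN was carried out in 3 anti-CHD7, 3 IgG and 3 input libraries. The authors trimmed the reads, aligned them to mm10, called peaks with IgG as the control and retained peaks found in at least 2 replicates. The submitters' processing notes name fastp 0.20.1, BWA 0.7.17.4, MACS2 2.1.2 and deepTools 3.1.0. The calling threshold is not given in the sources used here. The deposited values are positions in bp, with no count or score. Reads, IgG and input were not analysed here.

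From these positions, midpoints were assigned to domains of 1 TSS per protein-coding gene of GENCODE M21 on GRCm38.p6 (protein-coding transcripts first, then APPRIS level, then spliced length), with starts read as counted from 0. The CHD genes and the lists of partners and of other remodeling ATPases were chosen with earlier results of these data known. The genes named were the members, the genes sharing or nearest to their peaks, the genes bounding their domains and up to 5 genes with a peak from each list, by number of peaks and then symbol. Genes of the nearest peaks outside a domain, and non-coding genes at the peaks, were added after their values were seen. Comparisons are descriptions without a test. Proteins were translated from GENCODE coding exons, in place of the RefSeq proteins planned, and aligned globally. Analyses used Python 3.11.15, numpy 2.4.6, scipy 1.17.1, pysam 0.24.0, Biopython 1.88 and matplotlib 3.10.9. The functions that build the domains and assign peaks to them were tested on simulated data, and the other functions were not. The alternatives were other TSSs, association rules, peak sets and motif windows.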

Additional observations from a re-analysis of the deposited data

How the results depend on the processing

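Of 13 other ways of tying peaks to genes, 7 gave the same 4 CHD genes and the same 6 peaks (the most 5′ TSS, the TSS of the longest transcript, an extension of 500 kb, any base or the whole of the peak in the domain, peaks less than 1 kb apart merged, and starts counted from 1). The others gave fewer. With all gene types as bounds there was 1 gene with 1 peak (Chd7), with the basal domain alone 0 genes and 0 peaks, and with an extension of 100 kb 1 gene with 1 peak (Chd6). The single nearest TSS gave 2 genes with 3 peaks (Chd6, Chd7), and the gene body plus 5 kb upstream 2 genes with 2 peaks (Chd6, Chd9, with 10.1% of all genes). The peaks wider than the median left 1 gene with 3 peaks (Chd6, with 13.0% of all genes). These changes follow from how each rule is built. The number of motifs matched, summed over the 6 peaks, rose from 6 in 200 bp to 11 in 400 bp and 21 in whole peaks. No paired analysis was possible because the deposited list pools the replicates and no test was made. For the same reason no replicate could be left out, and depth is unknown.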
